A study of Homo sapiens with 3 samples.

Results

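The ABC transporter genes of the human C4-2B prostate cancer line were compared between parental cells and 2 drug-resistant sublines. C4-2B is an established castration-resistant line derived from LNCaP. C4-2B MDVR cells were kept in 20 µM enzalutamide, a blocker of the androgen receptor. C4-2B AbiR cells were kept in 10 µM abiraterone acetate, an inhibitor of the androgen-synthesizing enzyme CYP17A1. C4-2B parental cells were passaged alongside them without drug, and all cells grew in serum-containing RPMI medium. Each line was measured on 1 Affymetrix HG-U133 Plus 2.0 array, so that a difference between arrays has no replicate check, no test and no p-value, and drug, subline and array cannot be told apart. Both comparisons against parental cells share the 1 parental array. Members were the genes with a symbol of ABCA to ABCG followed by a number, read by probe sets annotated to that gene alone, with pseudogenes and 1 further gene of subfamily C left out. This gave 40 of the 19775 genes measured, read by 88 probe sets.

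ABC proteins share an ATP-binding cassette, a domain that binds and hydrolyses ATP. Most of them sit in a membrane and use this energy to move lipids, bile salts, conjugated metabolites, peptides or drugs across it. Subfamilies B, C and G hold the drug efflux pumps, which can lower the amount of a drug inside a cancer cell. Subfamily A moves mainly lipids, subfamily D serves peroxisomes and lysosomes, and subfamilies E and F have no membrane part and act in translation.

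The deposited values are log2 values that appear centred for each probe set. They are compatible with a median of 0 over 4 arrays, 1 more than the 3 analysed here, but the centring was inferred from the values. Centred values order the arrays for a gene but carry no expression level. A silent gene and a highly expressed gene can therefore not be told apart, levels of different transporters cannot be compared, and the labelled cell type could not be checked from marker levels. A log2 difference of 1 is a 2-fold difference. The scale of technical noise was taken from 45 probe sets of spiked bacterial RNA. Their differences had an SD of 0.13 between MDVR and parental, with a largest size of 0.35. Between AbiR and parental the SD was 0.10 and the largest size 0.20, and between both resistant lines 0.12 and 0.34. A ± value below is the SD over a gene's probe sets and is a technical spread.

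Of the 40 ABC genes, 34 differed by less than 2-fold in every comparison. For all genes the share past 2-fold was counted within each comparison only, so this count has no share beside it. In MDVR, 1 of the 40 members was at least 2-fold higher than in parental cells, where 1.65% of all genes were, and 0 members were at least 2-fold lower, where 1.67% of all genes were. In AbiR, 3 members were at least 2-fold higher against 1.07% of all genes, and 1 was at least 2-fold lower against 0.804% of all genes. Between MDVR and AbiR, 1 member was at least 2-fold higher in MDVR (0.875% of all genes) and 2 were at least 2-fold lower (1.13% of all genes). At a limit of 1.5-fold, 4 members were higher and 4 lower in MDVR than in parental cells, beside 4.81% and 5.15% of all genes. In AbiR, 4 were higher and 3 lower at this limit (3.32% and 2.52% of all genes), and 3 were higher and 3 lower in MDVR than in AbiR (2.77% and 3.96% of all genes). The median difference over the members was 0.058 in MDVR and 0.017 in AbiR, beside medians of 0.044 and −0.011 over all genes. Differences no larger than the largest of the spiked controls were seen for 27 members in MDVR, or 67.5% beside 77% of all genes, and for 24 in AbiR, or 60% beside 67% of all genes. In all, 6 members passed 2-fold in some comparison, namely ABCA12, ABCB11, ABCE1, ABCF1, ABCG1 and ABCG2. This count too has no share of all genes beside it. Just short of 2-fold against parental cells were ABCF1 (−0.98), ABCE1 (−0.96) and ABCB10 (−0.94) in MDVR, and just past it was ABCA12 (1.04) in AbiR.

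**Figure D1:**
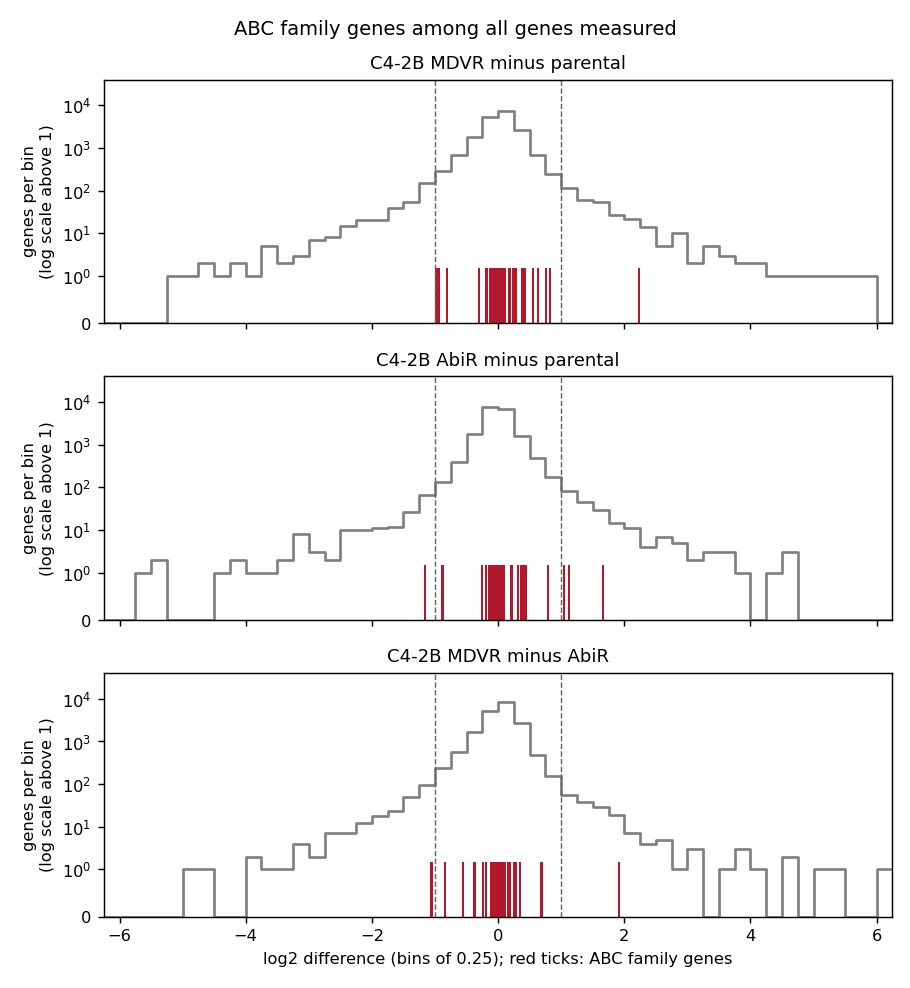
Grey outlines give the number of the 19775 genes (y axis, log scale above 1) by log2 difference (x axis, bins of 0.25) for the 3 comparisons, red ticks are the 40 ABC family genes, and dashed lines mark 2-fold. Nearly all red ticks lie between the dashed lines, and the one farthest out is ABCB11, at 2.24 in MDVR minus parental and at 1.92 in MDVR minus AbiR.

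Among the drug efflux genes, ABCG2 was higher and ABCC1 was lower in both resistant lines than in parental cells. ABCG2, the breast cancer resistance protein, exports many cytotoxic drugs and conjugates. Its centred log2 value was −0.53 in parental cells, 0.23 in MDVR and 0.59 in AbiR, by 1 probe set. Both resistant lines lay above the parental array, and AbiR was highest. The differences from parental were 0.76 in MDVR, or 1.69-fold, and 1.12 in AbiR, or 2.17-fold. Larger differences were shown by 2.84% of all genes in MDVR and by 0.824% in AbiR.

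ABCC1, the multidrug resistance protein that exports glutathione conjugates, went the other way. Its centred log2 values were 0.84 in parental cells, 0.035 in MDVR and −0.035 in AbiR, so that the resistant lines lay close together and below the parental array. The difference was −0.81 ± 0.11 in MDVR and −0.88 ± 0.084 in AbiR, that is 1.75-fold and 1.84-fold lower. Its 2 probe sets gave −0.73 and −0.88 in MDVR and −0.82 and −0.94 in AbiR. Lower differences were found for 2.68% of all genes in MDVR and for 1.04% in AbiR.

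ABCC5, a pump for cyclic nucleotides and nucleotide analogues, had differences of 0.41 ± 0.53 in MDVR and 0.79 ± 0.51 in AbiR over 3 probe sets. The probe sets differed widely. They read 0.98, 0.32 and −0.061 in MDVR and 1.26, 0.87 and 0.25 in AbiR, in the same order. In MDVR the spread between probe sets was larger than the mean difference. In AbiR all 3 were above 0.

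ABCB1, which encodes P-glycoprotein, the pump best known from multidrug resistance, differed by less than the SD of the spiked controls in both lines. Its centred log2 values were 0.045 in parental cells, −0.048 in MDVR and −0.046 in AbiR. The differences were −0.093 ± 0.012 and −0.091 ± 0.0056 over its own 2 probe sets. With arrays centred on hybridization controls they were −0.16 in MDVR and −0.18 in AbiR, larger than that SD in both lines. A further probe set is annotated to ABCB1 and its neighbour paralog ABCB4 jointly and cannot be assigned to either of them. It had differences of −0.30 in MDVR and −0.76 in AbiR. ABCB4, a phosphatidylcholine exporter described here after its values were seen, had differences of 0.075 and −0.096 by its own 2 probe sets.

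The other drug efflux genes showed small differences. ABCC2, which exports conjugates into bile, was at 0.17 in MDVR and −0.0067 in AbiR, and ABCC10, a pump for taxanes, at 0.17 ± 0.035 and 0.0068 ± 0.025. ABCC3, an exporter of glucuronides, was read by 5 probe sets, with differences of 0.060 ± 0.17 and −0.048 ± 0.029. ABCB5 was at 0.034 ± 0.16 and −0.019 ± 0.069 over 4 probe sets. ABCC11, an exporter of steroid sulfates and other organic anions, was at 0.052 ± 0.050 and 0.0087 ± 0.023, and ABCC12 at −0.14 ± 0.080 and −0.062 ± 0.19. Over the 10 drug efflux genes measured, of 11 listed, the medians were 0.056 and −0.013, and 1 passed 2-fold, ABCG2 in AbiR.

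**Figure D2:**
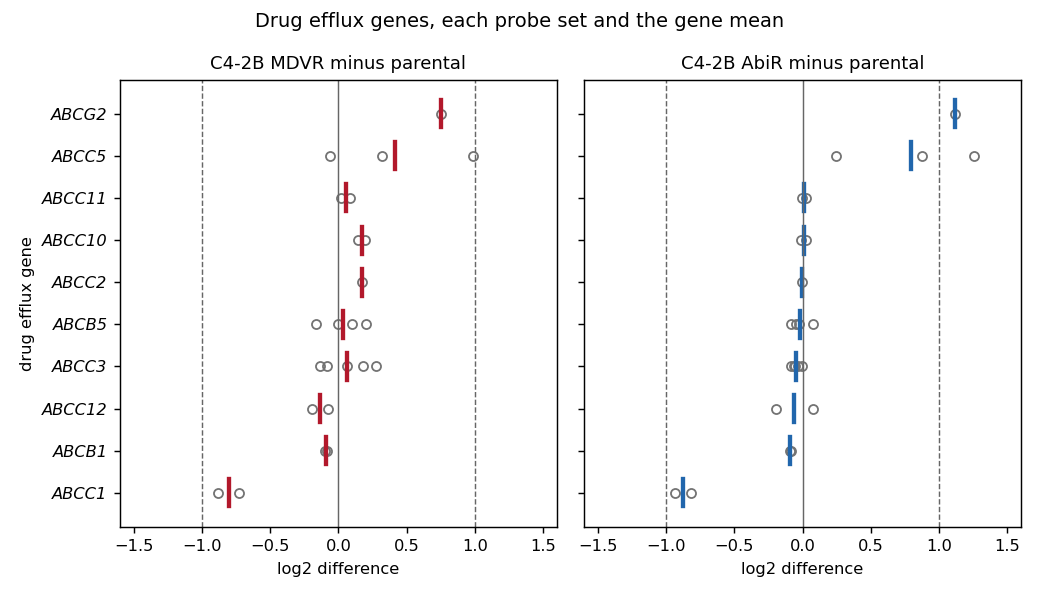
The 10 drug efflux genes (y axis) are placed by log2 difference from parental cells (x axis) in C4-2B MDVR (left) and C4-2B AbiR (right), where open circles are probe sets, bars are the mean of a gene and dashed lines mark 2-fold. ABCG2 is highest, at 0.76 and 1.12, ABCC1 is lowest, at −0.81 and −0.88, and the probe sets of ABCC5 are the most widely spread.

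The sulfonylurea receptors ABCC8 and ABCC9 are regulatory subunits of potassium channels and pump no drug. ABCC8 was higher by 0.56 ± 0.21 in MDVR and was at −0.12 ± 0.0025 in AbiR (2 probe sets), which was a difference of 0.68 ± 0.22 between the resistant lines. ABCC9 was at 0.028 ± 0.22 and −0.13 ± 0.22 over 5 probe sets.

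Among the lipid and sterol exporters, ABCG1 was higher in both lines. ABCB11, a bile salt pump listed with them, was higher in MDVR and is described further below. ABCG1 exports cholesterol to high-density lipoprotein. Its centred log2 values were −0.92 in parental cells, −0.11 in MDVR and 0.74 in AbiR. By the mean of probe sets, parental cells were lowest and AbiR highest. The difference was 0.82 ± 0.61 in MDVR (1.76-fold) and 1.66 ± 0.65 in AbiR (3.16-fold) over 4 probe sets. All 4 probe sets were higher in both lines, with a range of 0.17 to 1.64 in MDVR and of 1.06 to 2.44 in AbiR. A larger difference was shown by 2.45% of genes in MDVR and by 0.324% in AbiR. Relative to AbiR, the ABCG1 value in MDVR was −0.84 ± 0.42. This value was −1.14, past 2-fold, when probe sets that can match several transcripts, those of suffix _s, _x or _a, were left out. The ABCG1 differences from parental cells were then 0.43 in MDVR and 1.57 in AbiR.

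The other sterol exporters of subfamily G were near the parental values. ABCG5 and ABCG8 form a joint sterol pump of liver and gut. ABCG5 was at 0.11 in MDVR and 0.23 in AbiR, and ABCG4, a sterol exporter of the brain, at 0.23 and −0.049. ABCG8, given for its partnership with ABCG5, was at 0.17 and 0.10. All 5 measured genes of the subfamily were above 0 in MDVR and 4 in AbiR, beside 11350 and 9371 of the 19775 genes.

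ABCB11 showed the largest difference of the family. It encodes the bile salt export pump, which is known mainly from hepatocytes. Its centred log2 values were −0.63 in parental cells, 1.61 in MDVR and −0.31 in AbiR, so that MDVR stood apart from the other two. The difference was 2.24 ± 0.60 in MDVR (4.72-fold) and 0.32 ± 0.014 in AbiR (1.25-fold). Its 2 probe sets gave 2.66 and 1.82 in MDVR and 0.31 and 0.33 in AbiR. In MDVR, 0.263% of genes had a larger difference. MDVR was 3.78-fold above AbiR (1.92 ± 0.61), and 0.177% of genes had a larger difference there. The promoter is shown because of this difference. It is the 250 bases before the annotated start (RefSeq, GRCh38.p14, chr2:169031325-169031574, minus strand), with a half-site of the androgen and glucocorticoid receptors, AGAACA on the opposite strand, in capitals.
ABCB11: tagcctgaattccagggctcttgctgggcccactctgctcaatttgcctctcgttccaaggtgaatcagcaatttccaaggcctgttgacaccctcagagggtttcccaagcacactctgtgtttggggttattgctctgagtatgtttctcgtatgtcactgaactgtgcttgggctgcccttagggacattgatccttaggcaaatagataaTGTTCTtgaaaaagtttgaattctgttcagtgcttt
A match to these letters is a description and was not tested for binding. AGAACA was found in 12.4% of the 35116 windows of all genes. Only the letters listed below were searched, so sites of other factors in this window are not marked. The window has a GC content of 46.4%.

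Genes of subfamily A, mostly lipid transporters, had medians over 11 members of 0.056 for MDVR and 0.36 for AbiR. In MDVR, 6 of them were above 0 and in AbiR 9, beside the counts over all genes given above. ABCA12, which loads ceramides into the secretory granules of skin cells, had centred log2 values of −0.22 in parental cells, −0.24 in MDVR and 0.82 in AbiR. AbiR alone was high, with differences of −0.018 in MDVR and 1.04 in AbiR (2.05-fold) by 1 probe set. With arrays centred on hybridization controls the latter was 0.95 and fell short of 2-fold. ABCA3, a phospholipid transporter known from lung surfactant, was at 0.43 in MDVR and 0.45 in AbiR by 1 probe set. ABCA7, a phospholipid transporter linked to phagocytosis, had differences of −0.11 and 0.45, and ABCA13 of −0.051 ± 0.12 and −0.14 ± 0.041. ABCA2, a lysosomal lipid transporter, was at −0.0024 ± 0.32 and 0.36 ± 0.34. Its 3 probe sets spanned from −0.96 to 0.34 for MDVR minus AbiR, so that they ran in opposite directions. ABCA1, which exports cholesterol to apolipoprotein A-I and is described here after its values were seen, was higher by 0.40 ± 0.37 and 0.41 ± 0.40, with all 4 probe sets above 0 in both lines.

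Of the mitochondrial and lysosomal members of subfamily B, ABCB10 was lower in both lines. ABCB10 lies in the inner mitochondrial membrane and is linked to heme synthesis. Its centred log2 values were 0.84 in parental cells, −0.10 in MDVR and −0.052 in AbiR, by 1 probe set. The resistant lines again lay close together and below the parental array. The differences were −0.94 (1.92-fold lower) and −0.90 (1.86-fold lower), and 1.91% and 0.966% of genes had lower ones. With arrays centred on hybridization controls the value in MDVR was −1.01, past 2-fold. The probe set is of suffix _s, so that ABCB10 has no value without that class. Of 5 listed genes of this group, 4 were measured, and the other 3 lay between −0.26 and 0.26 in both lines. The 250 bases before the ABCB10 start (chr1:229558708-229558957, minus strand, same source) are shown as a contrast to those of ABCB11, with SP1 boxes, GGGCGG on either strand, in capitals.
ABCB10: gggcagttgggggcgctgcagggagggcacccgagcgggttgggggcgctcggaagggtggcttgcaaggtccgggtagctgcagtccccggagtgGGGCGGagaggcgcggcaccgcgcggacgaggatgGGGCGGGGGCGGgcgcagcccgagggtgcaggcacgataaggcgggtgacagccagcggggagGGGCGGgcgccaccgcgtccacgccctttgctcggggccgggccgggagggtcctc
This window holds 4 such boxes and has a GC content of 77.2%.

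Subfamily D was read by 3 genes. ABCD3, which brings branched-chain fatty acids and bile acid precursors into peroxisomes, was higher by 0.63 ± 0.42 in MDVR (1.54-fold) and was at −0.075 ± 0.13 in AbiR. Its 2 probe sets read 0.92 and 0.33 in MDVR. With the _s, _x and _a classes left out, the value was 0.33, within the largest spiked-control difference of 0.35. ABCD2, a further peroxisomal fatty acid transporter, was at −0.072 in both lines, and ABCD4, a lysosomal protein of vitamin B12 export, at −0.059 ± 0.20 and 0.047 ± 0.067.

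The genes without a membrane part, of subfamilies E and F, held the lowest differences of the family from parental cells. ABCE1, which separates ribosomal subunits after translation ends, had centred log2 values of 0.75 in parental cells, −0.21 in MDVR and −0.40 in AbiR. Both resistant lines were low and the parental array was high. The difference was −0.96 ± 0.23 in MDVR (1.95-fold lower) and −1.15 ± 0.078 in AbiR (2.23-fold lower). Its 2 probe sets gave −1.13 and −0.80 in MDVR and −1.21 and −1.10 in AbiR. Lower differences were found for 1.82% of genes in MDVR and for 0.556% in AbiR. Both probe sets are of suffix _s, and ABCE1 has no value without that class. With arrays centred on hybridization controls, ABCE1 was at −1.03 in MDVR. Its 250 bases before the start (chr4:145098061-145098310, plus strand, same source) follow, shown because ABCE1 was low in both lines, with a cAMP response element, TGACGTCA, in capitals.
ABCE1: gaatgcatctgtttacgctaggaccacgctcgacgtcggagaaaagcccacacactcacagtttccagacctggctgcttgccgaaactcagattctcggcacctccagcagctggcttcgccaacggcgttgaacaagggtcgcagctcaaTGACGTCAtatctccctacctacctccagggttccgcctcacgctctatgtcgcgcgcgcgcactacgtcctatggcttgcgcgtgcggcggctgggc
TGACGTCA was added to the search after the sequences were read, and was found in 1.65% of the 35116 windows of all genes. None of the other letters searched, listed below, occurs in the ABCE1 window.

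ABCF1, which takes part in the start of translation, was low in MDVR alone. Its centred log2 values were 0.079 in parental cells, −0.90 in MDVR and 0.14 in AbiR, by 1 probe set. The difference was −0.98 in MDVR (1.97-fold lower) and 0.063 in AbiR, and MDVR was 2.06-fold below AbiR (−1.04). With arrays centred on their median or on hybridization controls, the MDVR difference was −1.01 and −1.05, past 2-fold. ABCF2 was at −0.30 ± 0.056 and −0.19 ± 0.067, with all 5 probe sets below 0 in both lines. ABCF3 was at 0.28 and 0.025.

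**Figure D3:**
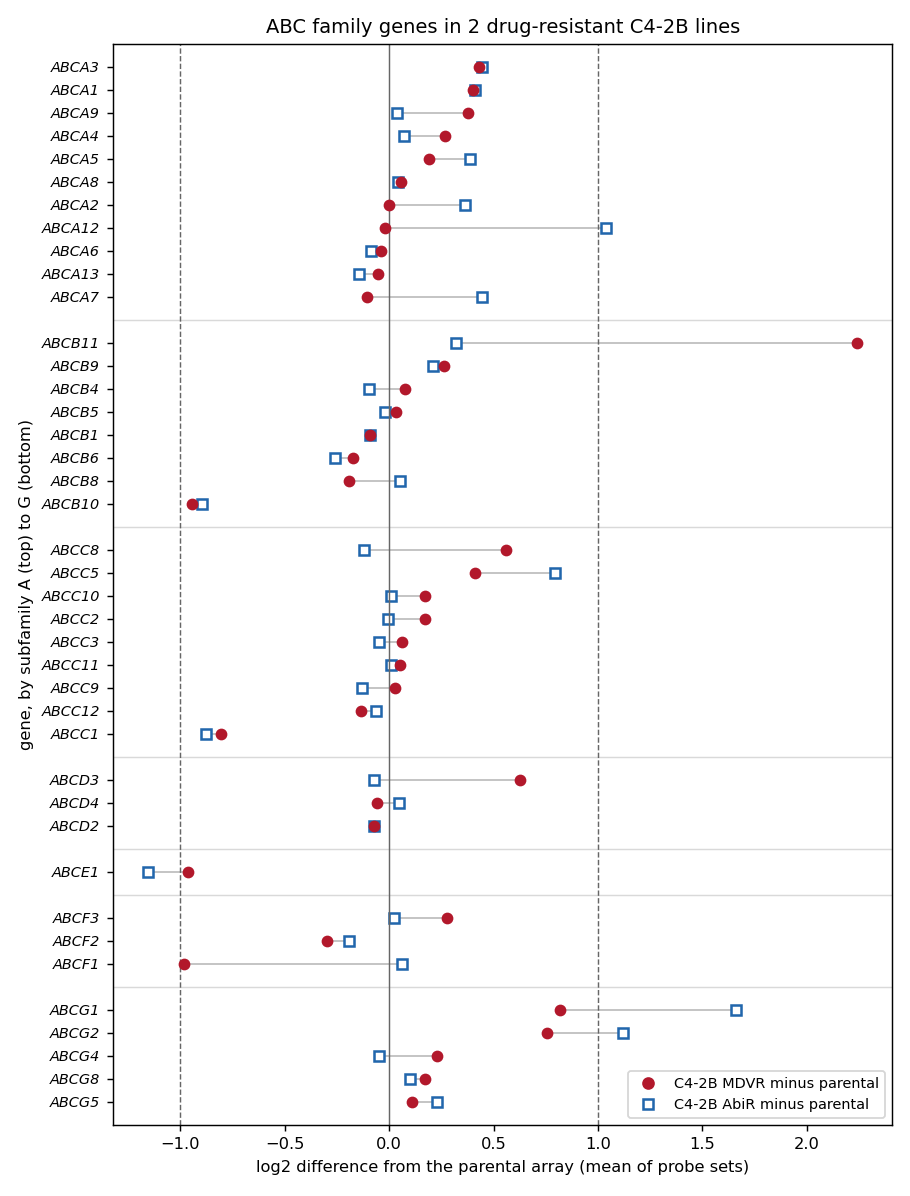
The 40 ABC family genes (y axis, by subfamily) are placed by log2 difference from parental cells (x axis, mean of probe sets) in C4-2B MDVR (filled circles) and C4-2B AbiR (open squares), with dashed lines at 2-fold. ABCB11 lies far to the right in MDVR alone, at 2.24, ABCG1 and ABCG2 lie to the right and ABCC1, ABCB10 and ABCE1 to the left in both lines.

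The members with large differences fell into several patterns over the 3 arrays. ABCC1, ABCB10 and ABCE1 were high on the parental array, and their values in MDVR and AbiR differed by 0.071 ± 0.023, −0.048 and 0.19 ± 0.16. By the mean of probe sets, ABCG1, ABCG2 and ABCC5 were lowest in parental cells and highest in AbiR. Their MDVR minus AbiR values were −0.84 ± 0.42, −0.36 and −0.38 ± 0.15 in that order. For ABCC5, 1 of 3 probe sets was lower in MDVR than in parental cells, at −0.061. ABCB11 was high and ABCF1 low in MDVR alone, while ABCA12 was high in AbiR alone. ABCD3 and ABCC8 were higher in MDVR than in AbiR by 0.70 ± 0.55 and 0.68 ± 0.22. The 2 probe sets of ABCD3 read 1.09 and 0.31 there. The lower one was within the largest spiked-control difference of 0.34.

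**Figure D4:**
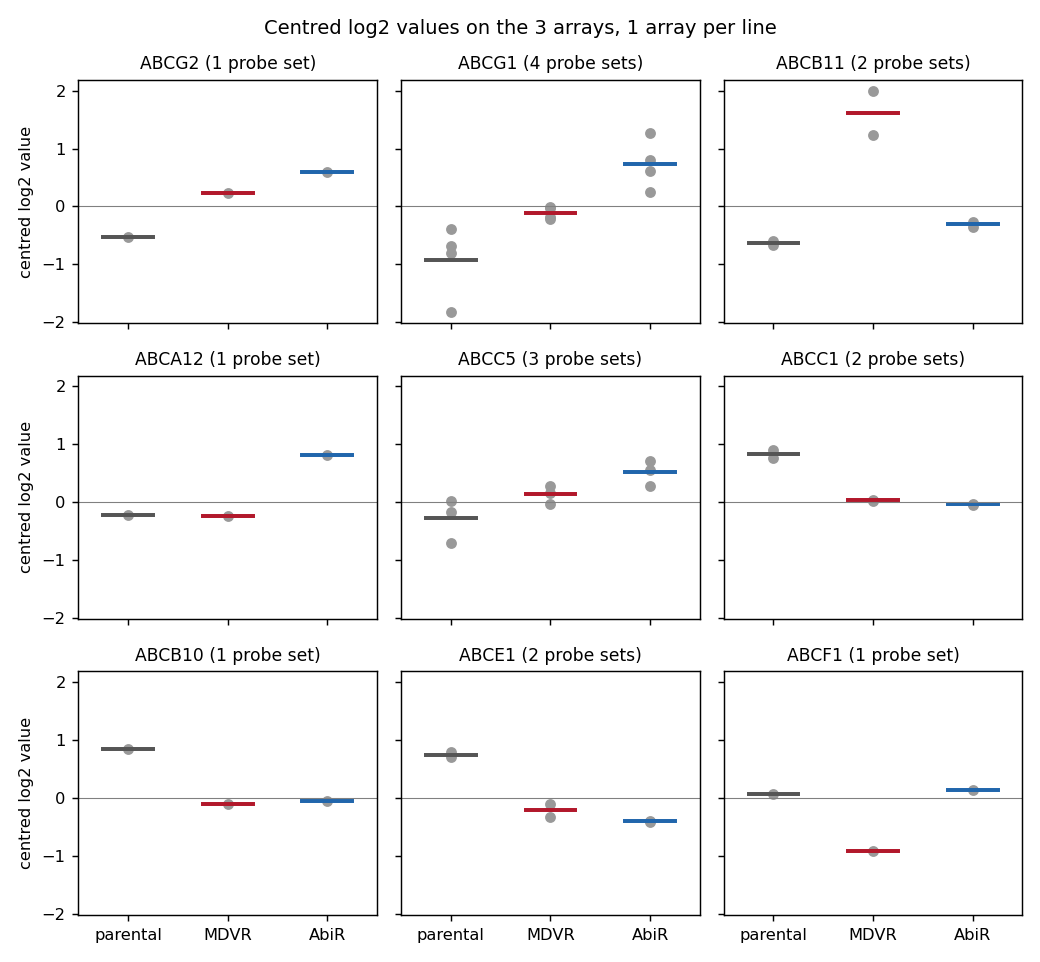
Centred log2 values (y axis) on the parental, MDVR and AbiR arrays (x axis) of 9 members, where grey points are probe sets and bars are the mean of a gene. The bars of ABCG2, ABCG1 and ABCC5 are lowest in parental cells and highest in AbiR, those of ABCC1, ABCB10 and ABCE1 are highest in parental cells, and MDVR stands apart for ABCB11 and ABCF1.

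Genes that work with the ABC family were read from lists. Of 22 nuclear receptors and other regulators of ABC genes, 17 were measured. In MDVR, 1 of them was at least 2-fold higher and 0 were at least 2-fold lower, and in AbiR 0 were past 2-fold. The one was PPARG, a lipid-sensing nuclear receptor, with log2 differences of 1.92 in MDVR and −0.37 in AbiR by 1 probe set. Of the 9 partner proteins, such as channel subunits and peroxisomal import factors, 0 passed 2-fold in either line, and their medians were 0.29 and 0.17. The ABC proteins whose symbols follow another scheme were the peptide transporters TAP1 and TAP2 and the chloride channel CFTR, of which 0 passed 2-fold. TAP1 had the largest values of these, 0.92 and 0.88.

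Promoter windows of 250 bases were found for 32 members, 48 windows in all. The letters were searched on both strands, and windows of 1 gene can overlap. GGGCGG was in 25 of the 48 windows, or 52.1%, and in 42.6% of the 35116 windows of all genes. The CCAAT box, CCAAT, was in 10 member windows, or 20.8% (32.0% of all). The TATA box, TATAAA, was in 5, or 10.4% (10.7% of all), and AGAACA in 6, or 12.5% (12.4% of all). The nuclear receptor half-site AGGTCA was in 2 windows, or 4.17% (12.1% of all). The E-box CACGTG was in 9 windows of 8 genes, or 18.8% of member windows (6.34% of all windows). This difference was not tested, and genes are listed for this motif only. The genes were ABCA1, ABCA9, ABCA12, ABCB6, ABCB9, ABCC10, ABCF1 and ABCG2, of which ABCG2 has 5 windows. TGACGTCA, a motif added after the sequences were read, was in 1 window, that of ABCE1 (1.65% of all). These are counts of letters and say nothing of binding.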

How the data were processed

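RNA of parental cells and of both resistant sublines was measured on 1 array per line, and groups were taken from the sample titles. The authors deposited log2 values for 54675 probe sets, for which the submitters' notes name RMA (version not given in the sources used here), which corrects background, normalizes between arrays and summarizes probes. They appear further centred: 100% of probe sets are compatible, within 2e-06, with a median of 0 over 4 arrays, of which 3 were analysed here, so that this centring is inferred and not known. Centring removes the level, so no filter on low signal was possible, and RMA background compresses differences of weakly expressed genes.

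Gene names came from the array platform's annotation, with symbols updated through gene IDs to RefSeq (GRCh38.p14), where all 40 member genes were found. Of the probe sets, 41097 had 1 gene symbol and 1801 had several. The mean of the probe sets of a gene was used. Genes at least 2-fold different were counted, as a description. Named were all drug efflux genes, all members past 2-fold, the highest and lowest of each subfamily, and members whose probe sets spanned over 1 on the log2 scale, 28 in all. ABCA1, ABCB4, ABCC9 and ABCG8 are outside this rule and were described in addition. Members, lists and tests were chosen with earlier results of these data known. Calculations used Python 3.11.15, pandas 2.3.3 and numpy 2.4.6 and were tested on simulated data. Alternatives were the median of probe sets, leaving out the _s, _x and _a classes of probe set, 2 other scalings and a 1.5-fold limit. 1 gene of the family is not reported here.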

Additional observations from a re-analysis of the deposited data

Results flagged for a closer look

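ABCA12 and ABCF1 are listed because their differences from the parental array had opposite signs in the resistant lines while these lines were more than 2-fold apart. MDVR minus AbiR was −1.06 for ABCA12 and −1.04 for ABCF1, each by 1 probe set. The difference was not tested, since each line has 1 array. The smaller difference of each gene, −0.018 in MDVR for ABCA12 and 0.063 in AbiR for ABCF1, was within the SD of the spiked controls, and that of ABCF1 was −0.028 with arrays centred on hybridization controls.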

How the results depend on the processing

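No difference past 2-fold changed sign under any alternative that gave it a value. With a 1.5-fold limit, 4 members were higher and 4 lower in MDVR (4.81% and 5.15% of all genes), 3 were lower in AbiR (2.52%), and 3 were higher in MDVR than in AbiR (2.77%). The count of members at least 2-fold lower in MDVR was 1 with arrays centred on their median and 3 with arrays centred on hybridization controls. That in AbiR was 0 with the _s, _x and _a classes left out, where 33 members have a value. The other counts stayed within 1.5 times, and the member medians moved by less than the SD of the spiked controls. Of 84 values of named members, 0 moved by more than their technical spread with the median of probe sets, 5 with arrays centred on their median and 19 with arrays centred on hybridization controls. Without suffix classes it was 5 of 63. Centring on hybridization controls moved the median of all genes by −0.066 in MDVR and −0.091 in AbiR. No paired analysis was possible because each group has 1 array, and leaving out an array leaves no comparison. Signal over background is not known for any gene, which limits what a small difference of a transporter can show.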
